A study of Zea mays with 6 samples.

Results

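In the third leaf of maize, 7842 of 43734 H3K9ac regions (17.9%) stood apart from H3K4me3 altogether: they overlapped none of the 32908 H3K4me3 regions by 1 bp or more, and the gene listed next to them was the next gene of no H3K4me3 region. They were assigned to 6503 of the 110149 gene features (5.90%), and 8 of them had no gene listed. The plants were the inbred line B73, 13 to 14 days after sowing, under 16 h of light and 8 h of darkness, without any genetic or chemical treatment. The leaf base was a piece of 1 to 2 cm that light did not reach, and the maturing zone was a 4 cm piece of the illuminated blade of the same leaves. Chromatin came from pools of 10 plants and poly(A) RNA from pools of 6 plants per replicate, and both are mixtures of cell types. The RNA table separates libraries A and B of each zone, with 18325106 to 50657759 exon reads, whereas the chromatin tables hold the authors' averages per zone, without values per replicate.

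H3K9ac, an acetyl group on lysine 9 of histone H3, and H3K4me3, a triple methylation of its lysine 4, are usually found together just downstream of the start of transcribed genes. H3K4me3 is the more tightly bound to gene starts, while acetylation of histone H3 also occurs at enhancers and upstream promoter segments. In maize, where much of the genome is transposable elements, acetylated sites far from genes have been used to propose enhancers. A region of this kind therefore need not belong to the gene that is next to it.

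Of the remaining H3K9ac regions, 29613 overlapped H3K4me3 at a gene with H3K4me3. Another 5670 lay apart from H3K4me3 but next to a gene that had it. The other 609 overlapped an H3K4me3 region but had no next gene listed for H3K4me3, and 44 of them had no gene listed at all. The median gap from a region lacking H3K4me3 to the nearest H3K4me3 region was 9249 bp (quartiles 3100 and 32044 bp), against 1724 bp for the 5670 regions apart from H3K4me3 at genes that had it. Closest to the limit on the inside were regions 17 and 18 bp from an H3K4me3 region, next to GRMZM2G170653 (218 and 76.4 normalized H3K9ac reads in base and maturing zone) and GRMZM2G102942 (351 and 175). On the outside, regions next to GRMZM2G512276 and GRMZM5G894976 overlapped by 3 and 7 bp, with 90.0 and 297 and with 65.3 and 89.6 normalized reads. The name "lacking H3K4me3" held for the listed assignments, with an exception: 71 of the 6503 genes (1.09%) had another H3K9ac region that overlapped an H3K4me3 region listed for a different gene, and among the 379 genes with 1000 reads or more this was the case for 21 (5.54%). Of the regions, 4 lay on the plastid genome, whose DNA is not wrapped around histones, and in the authors' deposited table all 4 were higher in the maturing zone, with folds from 2.42 to 4.00. The part of such background in the weak regions was not tested. The zones matched their labels: summed over 6 C4 and Calvin cycle markers, TMM-scaled CPM were 236 and 543 in base A and B and 98989 and 152581 in maturing zone A and B, and summed over 3 genes of dividing cells 174 and 121 in the base against 0.889 and 1.87 in the maturing zone. All 18 listed C4, Calvin, cell cycle and regulatory genes had an H3K4me3 region. By the rule, 0 of them could therefore be next to a region lacking H3K4me3.

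The annotation of the next genes set these regions apart first. Low-confidence gene models made up 3235 of the 6503 genes (49.7%), protein-coding genes 1869 (28.7%), transposable elements 1374 (21.1%) and miRNA genes 25. Among the 26994 genes next to regions with both marks, the same classes held 16.2%, 78.2%, 5.40% and 0.107%, and over all 110149 features 36.8%, 35.7%, 27.2% and 0.285%. Counted by region, 50.2% lay next to low-confidence models, 28.7% next to protein-coding genes and 20.6% next to transposable elements. The 5670 regions that also lay apart from H3K4me3, but next to a gene that had it, were 87.4% protein coding. Because the rule asks for genes without H3K4me3, and H3K4me3 accompanies transcribed genes, the class and the rule are not independent. Within each class, the regions took in 7.97% of all low-confidence models, 7.96% of miRNA genes, 4.75% of protein-coding genes and 4.59% of transposable elements. The share of H3K9ac regions that lacked H3K4me3 lay between 15.8% and 19.2% on chromosomes 1 to 10. Most genes had 1 such region (5451), 839 had 2 and 169 had 3.

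**Figure D1:**
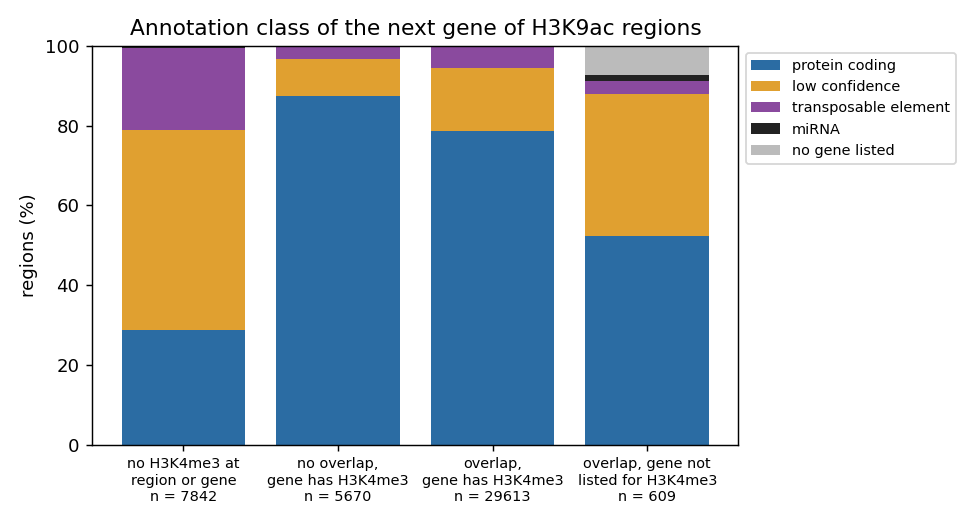
Annotation class of the next gene (percent of regions, stacked bars) for the 4 kinds of H3K9ac region, with the number of regions under each bar. Protein-coding genes are 28.7% of the regions lacking H3K4me3 at region and gene and 78.7% of those overlapping H3K4me3 at a gene that has it.

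Transcripts of most of these genes were not detected. Over the 4 RNA libraries, 3936 genes (60.5%) had 0 reads, 1043 had 1 to 9 reads, and 379 (5.83%) had 1000 or more. Over all 110149 features, a similar 59.2% had 0 reads, and 14.1% had 1000 or more. The share without reads was 17.1% for protein-coding genes, 75.4% for low-confidence models, 84.0% for transposable elements and 100% for the 25 miRNA genes. All 314 miRNA features had 0 reads, the 29 next to both marks among them. Poly(A) libraries do not capture mature miRNAs, and the cause of these 0 counts was not tested. Among genes next to both marks the shares without reads were 3.07%, 53.0% and 66.9% for the first 3 classes, and over all features 18.8%, 76.8% and 88.1%. Genes with H3K9ac alone thus had reads about as often as any feature of their class. Their protein-coding members had a median of 30 reads, against 243 for all protein-coding features and 1775 for those next to both marks. A floor of 3 reads corresponds to 0.0408 to 0.296 CPM per library, and the sources used here do not state how reads that match several copies, or overlapping features, were counted, which bears on transposable elements most of all. All member genes together held 1.97% and 1.49% of the exon reads in base A and B and 2.26% and 1.67% in maturing zone A and B, so the 2 zones overlapped.

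**Figure D2:**
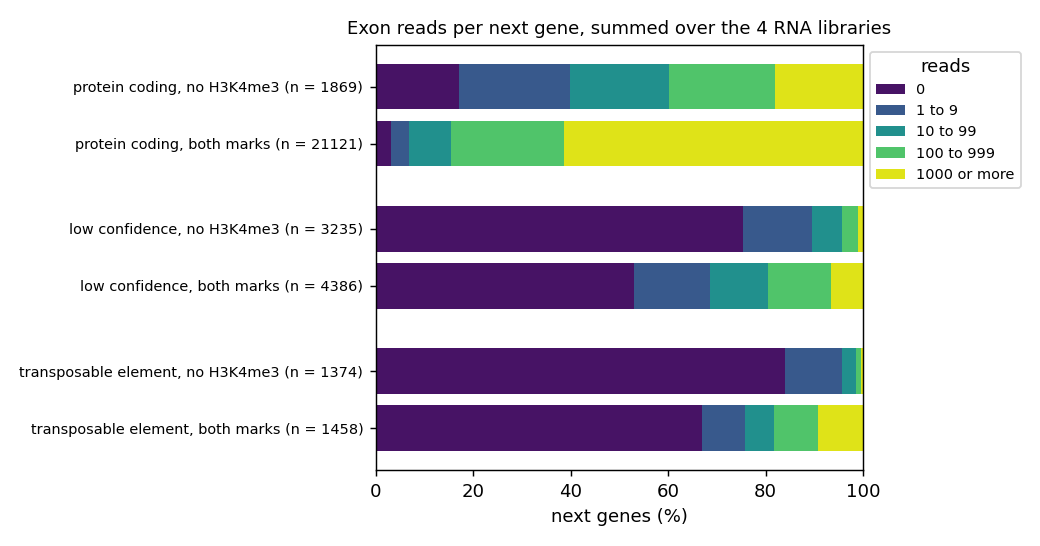
Share of next genes (percent, stacked horizontal bars) by exon reads summed over the 4 RNA libraries, for genes with H3K9ac lacking H3K4me3 and for genes next to both marks, in 3 annotation classes. Genes with 0 reads are 17.1% of protein-coding genes lacking H3K4me3 and 3.07% of those with both marks.

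The level of H3K9ac hardly differed with the reads of the next gene. Regions at genes with 0 reads had medians of 72.8 normalized reads in the base against 87.1 in the maturing zone, and regions at genes with 1000 reads or more 73.6 and 86.7. Of the 4739 regions at genes without reads, 307 lay above the median signal of all H3K9ac regions (214). Among the regions of highest mean signal, one next to GRMZM2G127949 on chromosome 3 (178053785 to 178054843) had 676 and 583 in base and maturing zone, at a gene with 4643 and 7135 reads in the base libraries A and B, then 2531 and 1370 in those of the maturing zone. Another on the same chromosome (199405080 to 199406744), next to the low-confidence model AC212001.2_FG005, had 806 and 340 while the gene had 2, 8, 0 and 0 reads. The region next to GRMZM2G318375 on chromosome 5 (74686973 to 74688318) had 470 and 654. The region of the highest mean signal of all, 238 in the base against 1046 in the maturing zone, lay on an unplaced scaffold with no gene listed.

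Transcript levels were then compared between the maturing zone and the base. These zones differ in light as well as in position and tissue age, and the part of each was not tested. Of the 6503 genes, 1125 passed the count filter, and edgeR's quasi-likelihood test found 237 to be higher and 150 to be lower in the maturing zone at a Benjamini-Hochberg adjusted p under 0.05, which is 34.4% of those tested. Over all 26787 genes tested 29.2% were called, 13.5% as higher and 15.8% as lower. The median log2 difference, maturing zone minus base, was 0.27 over the members tested and -0.13 over all genes tested. In bulk tissue, fewer cells of a type and less RNA per cell cannot be told apart. Of 892 protein-coding genes tested 190 were higher and 132 lower (21.3% and 14.8%, where all protein-coding features tested had 13.8% and 17.0%). Of 203 low-confidence models 38 were higher and 17 lower (18.7% and 8.37%, against 10.5% and 6.79% of all such models), and of 30 transposable elements 9 were higher and 1 lower, where 12.7% and 6.03% of all those tested were. Under library totals, which moved the median of all genes by -1.14, the split was 191 higher and 318 lower, so directions hold relative to TMM. With library A of the maturing zone left out, 192 were higher and 92 lower. An FDR under 0.05 in the authors' deposited table was listed for 473 of the 6503 (7.27%), 273 of them higher and 200 lower, against 7.60% of all features (3.38% higher and 4.22% lower).

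Of the 379 genes with 1000 reads or more, 83 were called higher, 68 lower and 228 neither, so 21.9% were higher and 17.9% lower, beside 14.3% and 18.9% of all 15556 features with as many reads. Among the 5 with the most reads, 4 were higher and 1 was lower. The sucrose transporter gene sut1 (GRMZM2G034302), which loads sucrose into the phloem, had 7.94 and 26.1 CPM in base A and B and 991 and 2143 in maturing zone A and B. Its log2 difference was 6.53 ± 1.13 (SE; 2 libraries in each zone; adjusted p = 0.0172 in edgeR). Its H3K9ac regions, on chromosome 1 at 15073540 to 15074353 and 15079179 to 15079715, gained 1.8-fold and 3.82-fold in the authors' deposited table. The gene listed as cp29 (GRMZM2G033885), a chlorophyll-binding protein of the photosystem II antenna, had 75.9 and 136 CPM in the base against 3109 and 2754 in the maturing zone, a difference of 4.79 ± 0.93 (edgeR adjusted p = 0.0215), and shbp1 (GRMZM5G814089), for the Calvin cycle enzyme sedoheptulose bisphosphatase, had 11.1 and 30.7 against 578 and 1037. In these 3 genes both maturing zone libraries lay above both base libraries. The regions of cp29 lay only 977 and 1737 bp from H3K4me3 regions listed for GRMZM5G803638 and GRMZM2G033493. The gaps were 5062 and 10701 bp for sut1 and 4770 and 8429 bp for shbp1. Whether the nearby H3K4me3 belongs to cp29 itself was not tested.

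The gene with the most reads, GRMZM6G910544, had 84.2 and 230 CPM in the base against 3833 and 5985 in the maturing zone, and its difference of 4.96 ± 1.15 (edgeR adjusted p = 0.0303) lost its call when library A of the base was left out (4.42, adjusted p = 0.0563). GRMZM2G329047 had 6.18 and 13.0 CPM against 824 and 1206, a difference of 6.73 ± 0.89 (edgeR adjusted p = 0.0135). Its region lay 825 bp from an H3K4me3 region listed for GRMZM2G329058. The other way went glu1 (GRMZM2G016890), a beta-glucosidase that releases defensive benzoxazinoids from their glucosides, with 1441 and 436 CPM in the base against 38.2 and 18.5 in the maturing zone, a difference of -5.04 ± 0.99 (edgeR adjusted p = 0.0220). When 1 library at a time was left out, the log2 differences lay between 5.85 (without maturing zone B) and 7.59 (without base B) for sut1, 4.44 and 5.24 (without base A and B) for cp29, 4.72 and 6.15 (without base A and B) for shbp1, 6.30 and 7.33 (without base A and B) for GRMZM2G329047, and -5.69 and -3.93 (without base B and A) for glu1; GRMZM6G910544 reached 5.83 without base B.

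The largest increases included vignain (GRMZM2G070011), a name used for papain-type cysteine proteases, with 33 and 3 reads in the base libraries A and B against 26009 and 6744 in those of the maturing zone. Its log2 difference was 11.15 ± 1.20 (edgeR adjusted p = 0.0130), 12.74 without base A and 10.47 without base B. The others had 0 base reads: GRMZM2G004653, with 339 and 143 reads in maturing zone A and B, was at least 338-fold higher against a floor of 3 reads over the base, GRMZM2G164225 at least 344-fold, GRMZM2G174129 at least 170-fold and GRMZM2G071396 at least 238-fold. Regions next to these 5 genes gained H3K9ac between 5.06-fold and 14.8-fold in the authors' deposited table. The weakest base average was 6.66 normalized reads, at GRMZM2G164225, whose region lay 426 bp from an H3K4me3 region listed for GRMZM2G164229.

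Among the largest decreases, GRMZM2G044882 had 2050 and 2362 reads in the base libraries A and B against 1 and 2 in those of the maturing zone, a difference of -9.38 ± 1.21 (edgeR adjusted p = 0.0132), -7.91 without maturing zone A and -10.86 without maturing zone B. GRMZM5G820912, with 326 and 32 base reads and 0 in the maturing zone, was at least 56.8-fold lower against 3 reads over that zone, GRMZM2G141762 at least 40.8-fold, GRMZM2G080731 at least 34.9-fold and GRMZM2G421655 at least 31.1-fold. The call of GRMZM2G080731 was lost without maturing zone A (edgeR adjusted p = 0.0522), as was that of GRMZM2G421655 (0.101), and GRMZM2G141762 was not called with DESeq2 size factors (0.0527). In the authors' deposited table the regions next to GRMZM2G044882, GRMZM5G820912, GRMZM2G141762 and GRMZM2G080731 lost H3K9ac, while both regions next to GRMZM2G421655 gained it (28.3 to 63.5 and 35.7 to 75.1 normalized reads), against the direction of its transcripts.

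**Figure D3:**
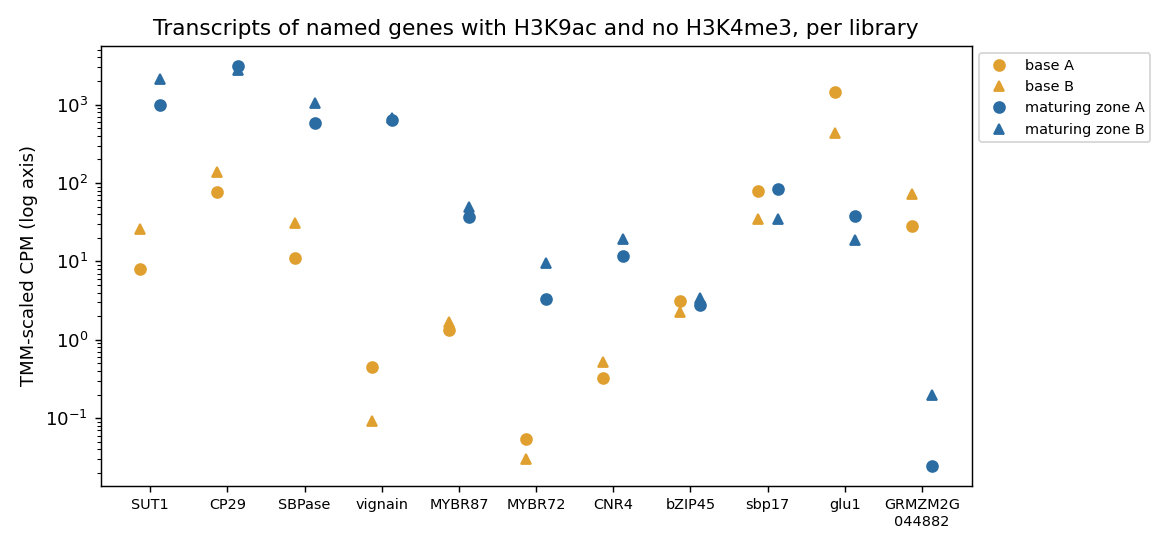
TMM-scaled CPM (log axis) of named genes in base libraries A and B and maturing zone libraries A and B; each point is 1 library. For sut1 the base libraries lie at 7.94 and 26.1 and the maturing zone libraries at 991 and 2143, while bZIP45 and sbp17 overlap between the zones.

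Of the 6503 genes, 642 matched an entry of the RefSeq gene table, and few of those carry a gene name. By their descriptions, 7 members were named as transcription factors, and the 5 of highest mean H3K9ac signal were read. Of these 5, the 2 MYB-related genes were called higher in the maturing zone. Among all members tested 21.1% were called higher, and 13.5% of all genes tested. The AP2/ERF gene EREB46, bZIP45 and sbp17 were read below by gene symbol, and none of them was called in the comparison above. MYBR87 (GRMZM2G158117) had 1.32 and 1.68 CPM in the base against 37.3 and 49.4 in the maturing zone, a difference of 4.86 ± 0.56 (edgeR adjusted p = 0.0130), and MYBR72 (GRMZM2G700011) had 0.0544 and 0.0305 against 3.36 and 9.47, a difference of 7.05 ± 1.11 (edgeR adjusted p = 0.0151; 6.09 without maturing zone B and 7.63 without maturing zone A). The homeobox gene Hox1b (GRMZM2G094935) had 267 and 17 reads in the base libraries against 103 and 9 in those of the maturing zone, so the zones overlapped. MADS-box genes act mainly in flowers; MADS5 (GRMZM2G102161) had 5 and 5 reads in the base libraries against 7 and 1 in those of the maturing zone, and GRMZM2G099522, listed with MADS7 and MADS8, had 1, 0, 3 and 0. Of the 2 regions of MADS5 on chromosome 9, the one at 146937037 to 146937721 nevertheless fell from 116 normalized reads in the base to 39.7 in the maturing zone. The other, at 146930786 to 146931541, had 83.5 and 90.3, with an FDR of 0.704 in the authors' deposited table.

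All 10 members with a gene symbol in the table were then read, a choice made after their values were seen. Beside shbp1, the cell number regulator CNR4 (GRMZM2G141526) rose, from 0.326 and 0.518 CPM to 11.7 and 19.5, a difference of 5.21 ± 0.75 (edgeR adjusted p = 0.0139). EREB46 (GRMZM2G085678), an AP2/ERF gene with the synonym WIN1, whose Arabidopsis namesake promotes wax and cutin synthesis, had 55 and 63 reads in the base libraries against 7 and 0 in those of the maturing zone, and its difference of -3.51 ± 1.26 had an edgeR adjusted p of 0.0886. It was called under library totals (-4.45, 0.0186), in the DESeq2 test (0.0417) and without a count filter (0.0241), and when 1 library was left out its difference lay between -8.65 (without maturing zone A) and -2.71 (without base B), with adjusted p from 0.0578 to 0.303 in edgeR. Its H3K9ac region fell from 214 to 37.4 normalized reads in the authors' deposited table. The gibberellin 3-oxidase gene ga3ox2 (GRMZM2G044358), for an enzyme that makes active gibberellin, had 1 and 2 reads in the base libraries and 1 and 0 in those of the maturing zone, with 87.6 normalized H3K9ac reads in the base against 17.4 in the maturing zone. The male sterility gene ms8 (GRMZM2G119265) had 4 and 7 reads against 2 and 3. The aspartate kinase and homoserine dehydrogenase gene AKHSDH1 (GRMZM2G437977), of amino acid synthesis, had a difference of -0.92 ± 0.67 (edgeR adjusted p = 0.344), which moved to -1.66 without maturing zone A and to -0.30 without base A, while its region gained 2.42-fold in the authors' deposited table. For sfp1 (GRMZM2G159632) the difference was 2.06 ± 0.74 (edgeR adjusted p = 0.0894, and 0.0296 in the DESeq2 test). The squamosa promoter-binding gene sbp17 (GRMZM2G156756) and bZIP45 (GRMZM2G093020) had adjusted p of 0.941 and 0.852 in edgeR, and the signs of their small differences turned with the scaling. AO2, an aldehyde oxidase gene (GRMZM5G899851), had 3 regions on chromosome 5 between 4587944 and 4590707, of which 2 gained (5.86-fold and 2.65-fold) and 1 fell from 140 to 41.0 normalized reads in the authors' deposited table, while its transcripts had an edgeR adjusted p of 0.152.

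H3K9ac itself was more often higher than lower in the maturing zone at these regions. At the authors' deposited FDR under 0.05, 3966 of 7842 gained (50.6%) and 2362 lost (30.1%), so 80.7% were called, against 66.8% of all 43734 regions, with 33.0% gained and 33.8% lost. Folds of at least 4 were reached by 1459 gained (18.6%) and 646 lost (8.24%), where all regions had 8.24% and 7.60%. The median average was 74.4 normalized reads in the base (quartiles 36.4 and 121) and 87.0 in the maturing zone (59.4 and 139), compared with 358 and 312 for regions overlapping H3K4me3 at a gene that has it. The regions were thus weak, and 4842 of the 7842 fell in the weakest quartile of all H3K9ac regions. The median length was 627 bp, against 654 bp for regions with both marks.

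The same shares were read by quartile of mean signal, which is computed from the averages that also give the fold. In the weakest quartile, 51.8% of the regions lacking H3K4me3 gained and 28.5% lost, while of those overlapping H3K4me3 32.4% gained and 41.7% lost. In the next quartile the shares were 47.2% and 33.4% against 31.1% and 46.9%, and in the third 53.8% and 30.8% against 24.6% and 42.6%. Only 32 regions reached the strongest quartile, of which 26 gained and 2 lost (81.2% and 6.25%). Of the overlapping regions in that quartile, 20.4% gained and 21.4% lost. The 5670 regions apart from H3K4me3 but at genes that had it had 50.1% gained, 28.3% lost and medians of 78.0 and 91.0 normalized reads, close to the shares of the regions lacking H3K4me3 at region and gene. By class, 55.7% of the regions at transposable elements gained and 26.7% lost, 49.9% and 31.1% at low-confidence models and 48.3% and 30.7% at protein-coding genes. At genes without reads 52.0% gained and 29.5% lost, and at genes with reads 48.5% and 31.0%.

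**Figure D4:**
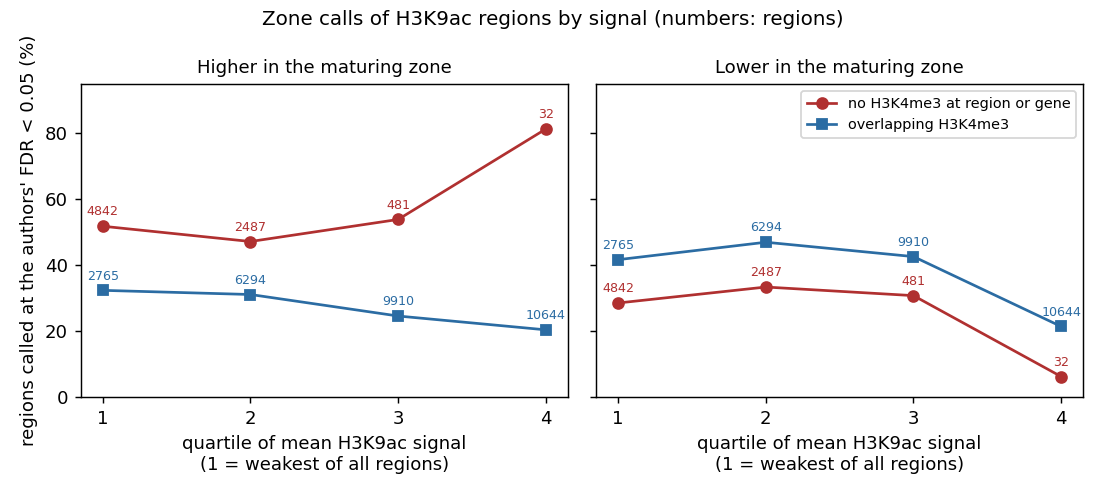
Percent of H3K9ac regions called higher (left) or lower (right) in the maturing zone at the authors' FDR, by quartile of mean H3K9ac signal over all regions, for regions lacking H3K4me3 and regions overlapping it; numbers beside points are regions. Gained shares of the regions lacking H3K4me3 are 51.8%, 47.2%, 53.8% and 81.2% from the weakest to the strongest quartile, the last over 32 regions. Those of the overlapping regions are 32.4%, 31.1%, 24.6% and 20.4%.

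The largest gains came together on chromosome 1. The low-confidence model GRMZM2G528052 had 9 regions, more than any other member gene, across 13.3 kb from 58448332 to 58461607, and it had 0 reads in every RNA library. All 9 gained, and their averages summed to 896 normalized reads in the base against 5143 in the maturing zone. At 3 of them the base was almost empty in the authors' deposited table: 1.54 against 442 at 58455895 to 58456450 (286.9-fold), 1.77 against 384 at 58454345 to 58454875 (216.5-fold) and 3.71 against 344 at 58457281 to 58457899 (92.7-fold). The lowest base average listed for any H3K9ac region was 1.1, so such folds rest on values near that limit, and 70 of the 7842 regions had a base average of at most 5. A further region, 95.8-fold gained, lay at 58473107 to 58473792, 1100 bp from the H3K4me3 region of the protein-coding gene GRMZM2G075502. That gene had 21.9 and 39.6 CPM in base A and B and 1013 and 2333 in maturing zone A and B, a log2 difference of 5.77 ± 0.97 (edgeR adjusted p = 0.0164; 5.01 without maturing zone B and 6.29 without maturing zone A). Its H3K4me3 region stood at 985 and 1069 normalized reads, with an FDR of 0.869 in the authors' deposited table. The gene's own H3K9ac region, at 58475235 to 58476308, overlapped that H3K4me3 region and rose from 547 to 1164 normalized reads. That gain was 2.13-fold, with an authors' deposited FDR of 3.12e-11. Within 60 kb on either side of the 9 regions, 15 H3K9ac regions lacked H3K4me3, and all 15 gained.

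**Figure D5:**
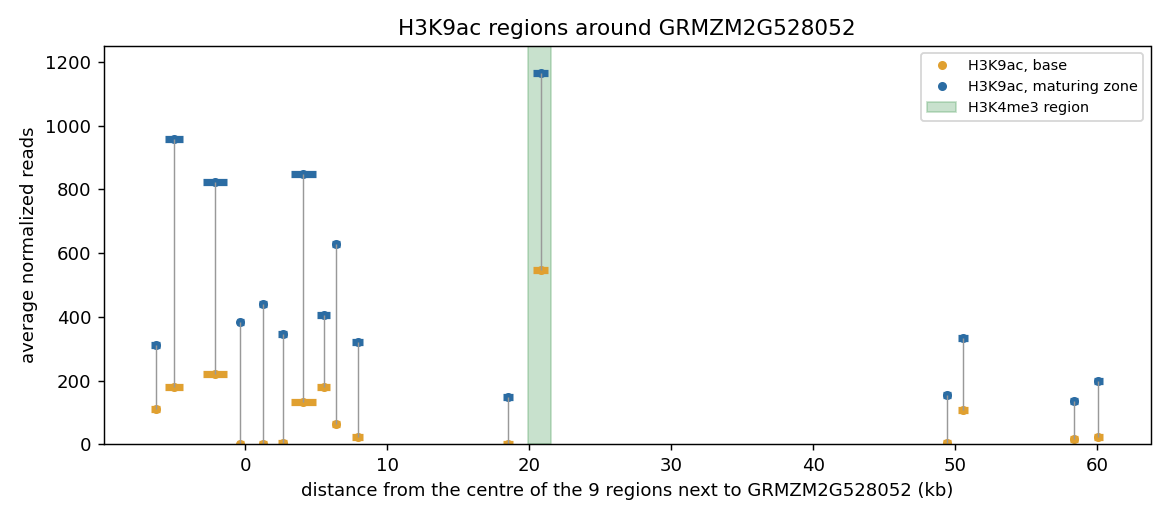
Average normalized H3K9ac reads in base and maturing zone (y axis) of every H3K9ac region within 60 kb of the 9 regions next to GRMZM2G528052, against distance from their centre in kb; horizontal bars give the length of each region and the shaded band the single H3K4me3 region, at GRMZM2G075502. The maturing zone point lies above the base point at all of the regions.

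The remaining large changes were scattered. GRMZM2G492462, a transposable element on chromosome 1 (141693232 to 141693708), went from 1.1 to 126 normalized reads and GRMZM2G147210 on chromosome 5 (136609256 to 136609864) from 1.97 to 203 in the authors' deposited table, with 0 and 1 reads of RNA in all. The genes of the nearest H3K4me3 regions, GRMZM5G828630 at 51887 bp and GRMZM2G147172 at 12967 bp, were both higher in the maturing zone, the first with 145 and 45 reads in the base libraries against 16130 and 3696, and the second with 6 and 2 against 6287 and 4937 (log2 differences 7.83 ± 0.71 and 12.04 ± 1.13, adjusted p = 0.0130 for both in edgeR). The largest loss was next to GRMZM2G029302, a low-confidence model without reads on chromosome 1 (281730072 to 281730902), from 545 to 12.2 normalized reads. It lay 674 bp from the H3K4me3 region of GRMZM2G029314, which had 1435 and 577 reads in the base against 0 and 1 in the maturing zone. At GRMZM5G819222 on chromosome 7 (136064976 to 136065632) H3K9ac fell from 105 to 2.69 normalized reads and the gene's own transcripts from 530 and 650 reads to 1 and 3 (log2 difference -6.88 ± 1.38, edgeR adjusted p = 0.0228). GRMZM2G503416, GRMZM2G567718 and GRMZM2G150351 followed, from 81.8, 111 and 313 normalized reads in the base to 2.69, 4.03 and 12.1 in the maturing zone. The neighbours of these losses varied: GRMZM2G142565, 97024 bp from the region at GRMZM2G503416, had a difference of 0.29 ± 0.50 (edgeR adjusted p = 0.694), and GRMZM2G150360, 25606 bp from that at GRMZM2G150351, one of 0.16 ± 0.69 (edgeR adjusted p = 0.884). GRMZM2G442170, 6996 bp from the region at GRMZM2G567718, had 128 and 7 reads in the base libraries against 1 and 0, and was not tested, while GRMZM2G458691, nearest to the region at GRMZM5G819222, had 0 reads throughout.

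Of 28 regions next to 25 miRNA genes, 11 gained at 11 genes and 14 lost at 11 genes in the authors' deposited table, or 39.3% and 50.0% of the regions beside 33.0% and 33.8% over all H3K9ac regions. Of the 44 H3K9ac regions next to miRNA genes outside this set, 29.5% gained and 45.5% lost, so losses outnumbered gains there too. At least 4-fold gains numbered 4 and such losses 10, or 14.3% and 35.7%. The shares were 4.55% and 11.4% for those 44 regions and 8.24% and 7.60% for all regions. MIR390a and MIR172d together hold 5 of the lost regions. MIR390a, whose product starts the production of small RNAs that restrain auxin response factors and help set the upper and lower leaf face, had 3 regions on chromosome 1 that fell from 252 to 37.8, from 168 to 8.99 and from 77.0 to 4.79 normalized reads. MIR172d, of a family that represses AP2-type genes in phase change and flowering, had 2 regions on chromosome 6 that fell from 219 to 20.4 and from 94.5 to 15.5. MIR171d, of a family directed at GRAS genes of meristems, fell from 120 to 20.0, while its relative MIR171i rose from 41.3 to 94.5. The largest gain was at MIR169m, of a family directed at NF-YA transcription factors, from 6.39 to 99.9. The 2 MIR399 genes, of a family of the phosphate response, differed in direction: MIR399f rose from 20.5 to 73.9 and MIR399h fell from 129 to 46.6. The region next to MIR408b, of a family directed at copper proteins, had 185 and 210 with an FDR of 0.382. All 25 had 0 reads, as did all 314 miRNA features, so the zones could not be compared at the transcript level.

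Where both the region and its next gene were called, they mostly moved the same way. Gained regions met 222 calls of higher and 40 of lower transcripts, and lost regions met 37 of higher and 112 of lower, so 334 of 411 pairs (81.3%) shared a direction, over 342 genes. The share was 95.6% of 5623 pairs for regions overlapping H3K4me3 at a gene that has it, and 75.3% of 1592 for those apart from H3K4me3 at such a gene. Within the members it was 81.3% for protein-coding genes (348 pairs) and 80.4% for low-confidence models (51 pairs). Most changes in H3K9ac had no transcript call to compare with, since 3296 gained and 1928 lost regions lay next to genes that did not pass the count filter. Regions of the same gene usually agreed: of 785 genes with 2 or more called regions, 454 had only gains, 218 only losses and 113 (14.4%) both. Mixed genes included glu1, where a region on chromosome 10 at 34240929 to 34241735 fell from 181 to 51.9 normalized reads and one at 34244805 to 34245290 rose from 23.6 to 126, and MYBR87.

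The gene of the nearest H3K4me3 region was read in the same way, since the next gene itself is often silent. At a gap under 1 kb, gained regions met 80 neighbours with higher and 8 with lower transcripts, and lost regions met 6 with higher and 30 with lower. From 1 to 5 kb the counts were 212 and 99 for gained and 31 and 197 for lost regions, and from 5 to 20 kb 144 and 118 for gained and 48 and 148 for lost. From 20 to 100 kb they were 232 and 106 against 42 and 88, and over 100 kb 28 and 19 against 6 and 15. The share of gained regions whose called neighbour was higher was 90.9% under 1 kb and 68.2%, 55.0%, 68.6% and 59.6% in the ranges that follow. The share of lost regions whose called neighbour was lower was 83.3%, 86.4%, 75.5%, 67.7% and 71.4% in the same order. Of the 6388 genes next to any H3K4me3 region that were called, 43.9% were higher. Several regions can share a neighbour, as the regions near GRMZM2G075502 do, so these pairs are not independent, and no test was made of them. Regions within 1 kb of H3K4me3 were 61.3% next to low-confidence models and 9.67% next to transposable elements, whereas from 20 to 100 kb the shares were 41.9% and 27.7%. Gains made up 51.8% of regions under 1 kb away, 45.2% at 1 to 5 kb and 49.3% at 5 to 20 kb. They were 55.3% at 20 to 100 kb and 60.9% of the 361 regions over 100 kb away.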

How the data were processed

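Positions are those of B73 RefGen_v3, the build listed in the submitters' processing notes, which also list Trimmomatic 0.32, CASAVA 1.8.2, edgeR and DiffBind 1.10.0 without their roles; the sources used here name no aligner, counter or peak caller. Exon read counts per gene feature are deposited with the authors' RPKM beside them, per the file headers; RPKM was not used in the comparisons. The chromatin tables hold, per the file headers, the authors' average normalized read signal per zone, a signed fold change (a score, negative where lower in the maturing zone) and an FDR-corrected p-value per region. Although the fold's header reads base over maturing zone, in 100% of H3K9ac regions whose averages differed a positive fold went with the higher average in the maturing zone. How the averages were scaled, and over how many libraries, is not given, so no test was refitted on them.

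Regions were compared by position (1 bp minimum overlap, coordinates as deposited) and by next gene. Zones were compared at the transcript level in edgeR 4.0.16 (R 4.3.3): filterByExpr with a minimum count of 10, TMM scaling, a quasi-likelihood test over the 4 libraries and Benjamini-Hochberg adjustment over 26787 genes; standard errors come from the difference and its F statistic. The fit was also run on simulated libraries, drawn independently and without a difference of A from B shared by both zones. That simulation could therefore not show how the fit behaves with such a difference. With 2 pools of plants per zone, p-values are set against the spread between libraries A and B within a zone. That spread includes any difference of A from B that both zones share (r = 0.803 across 26787 genes). The replicate block described below takes such a difference out. Read floors cover counting error only. Named regions and genes are those of largest change, highest signal or most reads, genes named as transcription factors, and listed genes; the members and lists were chosen with earlier results of these data known. The tables hold no distance from a region to its gene. Gene names come from the RefSeq table of assembly Zm-B73-REFERENCE-NAM-5.0, without its coordinates.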

Additional observations from a re-analysis of the deposited data

How the results depend on the processing

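Alternatives were other scalings, tests and filters for transcripts (DESeq2 1.42.0 among them), each RNA library left out, other overlap rules, and other thresholds. Member genes called higher numbered 191 to 234 and called lower 92 to 174 when 1 library was left out. Called lower were 318 under library totals and 261 without a count filter. Of the 387 calls, 339 to 379 recurred under the other scalings, filter and test and 245 to 309 without 1 library, and 0 were called the opposite way. With same-lettered libraries treated as pairs (the replicate block) 465 genes were higher and 405 lower, and 610 pairs of region and gene shared a direction while 267 were opposed (69.6% shared). The block also called EREB46 (-2.93, adjusted p = 0.00688 in edgeR), sfp1 (2.06, 0.000366), AKHSDH1 (-0.95, 0.00108) and AO2 (1.59, 0.00262), which were not called without it. The labels do not say that a letter marks the same pool, and the difference of A from B correlated between zones with r = 0.803 across 26787 genes, which are not independent. Dropping the next-gene criterion gave 13512 regions, and counting only the stronger 50% of H3K4me3 regions 22433. In the upper 50% of H3K9ac signal, 285 regions gained and 150 lost, since fewer regions were left, and the genes were 27.3% protein coding, 55.4% low confidence and 17.3% transposable elements. Counting under 10 reads as unread gave 76.6%. The sign turned for bZIP45 (GRMZM2G093020) and sbp17 (GRMZM2G156756) under library totals (-1.01 and -1.03) and for sbp17 without a count filter (-0.11). Leaving out 1 library gave -0.049 to 0.46 for bZIP45 (below 0 without base B or maturing zone B, -0.02), -0.70 to 0.79 for sbp17 (below 0 without maturing zone A or base B, -0.42) and -1.24 to 1.76 for Hox1b (GRMZM2G094935; above 0 without base A or maturing zone B, 0.20); the cause was not tested. The limit on distance to the gene was not run. Restricting to chromosomes 1 to 10, chosen after seeing the data, gave 3955 gained and 2358 lost. The depth of the chromatin libraries is unknown.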
